A study of Mus musculus with 11 samples.

Results

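The vomeronasal receptor gene clusters examined here were 5 intervals of the mouse genome that are rich in Vmn1r and Vmn2r genes, 3 on chromosome 7, 1 on chromosome 17 and 1 on chromosome 13. They were chosen by position: a genomic bin of about 50 kb belonged to a cluster when its midpoint lay inside the interval, and 312 of 52958 bins did (47924 bins were autosomal). In mm10 coordinates the first chromosome 7 cluster ran from chr7:6977711-10485381 (69 bins), the second from chr7:20022208-23521128 (69 bins), the third from chr7:84500000-86900000 (48 bins), the chromosome 17 cluster from chr17:18200000-23700000 (110 bins) and the chromosome 13 cluster from chr13:22000000-22800000 (16 bins). The borders of the first and second clusters coincided with bin borders and lay near the borders of stretches where Dnmt TKO cells had already been seen to differ in these data, so the Dnmt TKO values of both are given as a description without a test.

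The data were low-coverage whole-genome sequencing of genomic DNA from mouse embryonic stem cells (mESC), 11 libraries in 7 groups. Ctrl cells carried Cre/ERT2 and a Rosa26-LSL-H2b-Egfp reporter, and Tet iTKO cells carried in addition loxP-flanked alleles of Tet1, Tet2 and Tet3, the genes of the enzymes that oxidise 5-methylcytosine, which tamoxifen-activated Cre deletes. Each genotype was sequenced before treatment (1 library each), after acute treatment with 1 µM tamoxifen for 2.5 days and 4 further days of culture (1 library each), and as monoclonal populations kept for 30 days per the labels (long-term, 3 libraries each), where a legend of the study gives a longer culture for its clones. The long-term clones of both genotypes, Ctrl included, had also received 1 µM tamoxifen for 2.5 days. A constitutive Dnmt1, Dnmt3a and Dnmt3b knockout line (Dnmt TKO), which lacks the DNA methyltransferases and was not induced by tamoxifen, gave 1 long-term library. All cells were grown in 2i medium on mouse embryonic fibroblast feeders and sorted for CD326+ Thy1.2- cells, the Ctrl and Tet iTKO cells also for GFP. The labels give this GFP sort for the untreated cells too, where the reporter would be silent without Cre activity, and the state of the Tet genes in them was not checked. The long-term libraries were clones and the early ones populations. The labels give no strain for any line. The study states a B6 background for its mice, but cites earlier work for the Dnmt TKO line and gives no strain for it. The single Dnmt TKO library cannot separate its genotype from its line or its history.

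Vomeronasal receptors are G protein-coupled receptors through which sensory neurons of the vomeronasal organ detect pheromones. Vmn1r genes encode type 1 receptors with a short amino-terminal end, and Vmn2r genes encode type 2 receptors with a long extracellular domain. Both families lie in tandem arrays that grew by repeated duplication, in which intact genes alternate with pseudogenes and neighbouring copies remain very similar. The measurement here was the amount of DNA, not of transcript.

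The similarity of these copies bears on every value below and is shown here by the sequence around the annotated start of 3 receptor genes, taken from RefSeq (GRCm38.p6). Each run holds 250 bases before the gene start in lower case and the 50 bases from the start in capitals, 5′ to 3′ on the strand of the gene. Vmn1r91, a type 1 receptor gene in the second chromosome 7 cluster, lies on the plus strand and its window is chr7:20100908-20101207. Vmn2r30, a type 2 receptor gene in the first cluster, lies on the minus strand with its window at chr7:7337444-7337743. Vmn2r113, a type 2 receptor gene of chromosome 17, lies on the plus strand with its window at chr17:22942934-22943233.
Vmn1r91: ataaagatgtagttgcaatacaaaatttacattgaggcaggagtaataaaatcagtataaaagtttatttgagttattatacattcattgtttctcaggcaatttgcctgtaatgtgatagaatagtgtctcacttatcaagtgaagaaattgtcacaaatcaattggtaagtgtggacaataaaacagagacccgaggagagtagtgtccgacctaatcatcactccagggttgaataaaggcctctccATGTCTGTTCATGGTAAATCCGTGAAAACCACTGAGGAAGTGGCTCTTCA
Vmn2r30: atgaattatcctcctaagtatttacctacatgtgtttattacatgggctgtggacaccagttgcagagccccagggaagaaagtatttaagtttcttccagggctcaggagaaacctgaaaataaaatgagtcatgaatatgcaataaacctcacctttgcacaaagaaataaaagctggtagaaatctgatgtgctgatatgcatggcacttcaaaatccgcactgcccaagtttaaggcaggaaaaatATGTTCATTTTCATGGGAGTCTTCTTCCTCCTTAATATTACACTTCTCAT
Vmn2r113: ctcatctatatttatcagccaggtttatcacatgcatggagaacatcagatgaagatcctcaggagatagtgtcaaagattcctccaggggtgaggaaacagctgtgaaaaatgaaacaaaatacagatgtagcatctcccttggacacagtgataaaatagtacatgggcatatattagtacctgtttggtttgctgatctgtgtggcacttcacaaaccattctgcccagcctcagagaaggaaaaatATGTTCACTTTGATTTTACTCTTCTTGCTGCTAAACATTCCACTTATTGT

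Each window holds 251 overlapping runs of 50 bases (50-mers), counted over the whole genome on both strands. None of the 50-mers of the Vmn2r30 window and none of the Vmn2r113 window occurred only once in the genome, and they had on average 10.5 and 2.63 copies. In the Vmn1r91 window 43.4% of the 50-mers were unique and the most repeated had 19 copies. Among RefSeq windows of Vmn genes, 56 of 69 in the second chromosome 7 cluster and 13 of 24 in the first held no unique 50-mer, against 0 of 11 in the third, 1 of 38 on chromosome 17 and 1 of 21 on chromosome 13. RefSeq windows matched 142 of the 254 Vmn genes that the GENCODE annotation places in the 312 bins. One run of 50 coding bases, shown because no other was shared by more receptor genes of the second cluster, was present in 36 of its 50 coding Vmn1r genes:
Vmn1r100: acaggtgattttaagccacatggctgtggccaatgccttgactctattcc
In Vmn1r100 it lies at chr7:20418094-20418143 on the plus strand. It occurred 57 times in the genome, and all 57 copies lay inside the second cluster.

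The 5 clusters differed in gene content. The second chromosome 7 cluster held 62 Vmn1r genes, 50 of them annotated as protein coding, and no Vmn2r gene, and the chromosome 13 cluster held 42 Vmn1r genes, 21 of them coding. The first chromosome 7 cluster was mostly of type 2, with 39 Vmn2r genes (24 coding) and 4 Vmn1r genes (2 coding). The third held 37 Vmn2r genes, of which 14 were coding, and the chromosome 17 cluster held both kinds, with 46 Vmn2r genes (26 coding) and 24 Vmn1r genes (14 coding). Vmn genes made up 80.8% of the coding genes on chromosome 13, 76.5% in the first chromosome 7 cluster, 56.8% in the second and 51.9% on chromosome 17, but 38.9% in the third, which also held 18 coding Olfr (odorant receptor) genes. The chromosome 17 cluster also held 23 coding Zfp (zinc finger) genes and 3 Fpr (formyl peptide receptor) genes.

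They differed more in how much of their sequence was unique. The median bin had 11.1% unique 50-mers in the first chromosome 7 cluster and 1.04% in the second, against 86.6% in the third, 84.0% on chromosome 17, 73.1% on chromosome 13 and 94.7% over 2397 bins taken as every 20th autosomal bin. In the second cluster the median 50-mer of the median bin had 7 copies, in the first 4 and in the others 1. Of the repeated 50-mers in the median bin, 72.8% in the second cluster and 78.4% in the first had all their copies inside the same cluster, against 4.48%, 12.4% and 5.54% in the third, on chromosome 17 and on chromosome 13. Soft-masked repeats covered 52.6% of the median cluster bin and 31.4% of the median autosomal bin, and GC content was 39.0% against 41.4%. A read from a sequence with several identical copies cannot be placed at one of them by its letters, so the depth of a single bin in the first 2 clusters is not specific to the genes annotated in that bin, whereas for 50-mers whose copies all lie in the array a mean over the array does not depend on which copy received the read.

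The libraries held 555 to 812 megabases of mapped sequence, which gave a median autosomal depth of 0.215 to 0.315 and the equivalent of 215 to 315 reads of 50 bases per bin. That read length came from the values, since 95.4% of 3432 low base sums were multiples of 50 within 0.5 bases, whereas the methods state that longer reads were mapped, so the number of reads and the share of uniquely placed reads are approximate. All values below are relative depth, the depth of a bin divided by the median autosomal bin of its library, or differences of log2(relative depth + 0.01). Between single libraries the robust SD of a bin's log2 difference was 0.126 before treatment and 0.134 after acute treatment. The 4 early Ctrl and Tet iTKO libraries had a median relative depth of 0.0269 to 0.0381 on chromosome Y against 0.457 to 0.558 in the 7 long-term libraries, while chromosome X stood at 0.56 to 0.592 in all 11, so that for Ctrl and Tet iTKO stage cannot be told apart from what separates these libraries on chromosome Y, and the genotypes were compared within a stage. The targeted exons of the Tet and Dnmt genes are smaller than a bin and were not checked. Nothing in the labels says that the 3 long-term libraries of a genotype came from separately derived cultures beyond their being monoclonal, and their p-values measure the spread between these libraries.

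In the 10 Ctrl and Tet iTKO libraries the clusters stood close to the depth of the rest of the genome. The first chromosome 7 cluster was the shallowest, at 0.877 to 0.914. The third lay at 0.976 to 1.01, chromosome 17 at 1.06 to 1.09 and chromosome 13 at 0.996 to 1.07. The second chromosome 7 cluster lay between 1.06 and 1.10 in 9 of the 10 libraries and at 0.960 in the other, long-term Tet iTKO replicate 3. The Dnmt TKO library stood at 1.17 in the first cluster and at 0.560 in the second, outside the range of the other 10 in both, and at 1.01, 1.06 and 1.04 in the third, on chromosome 17 and on chromosome 13, inside it.

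**Figure D1:**
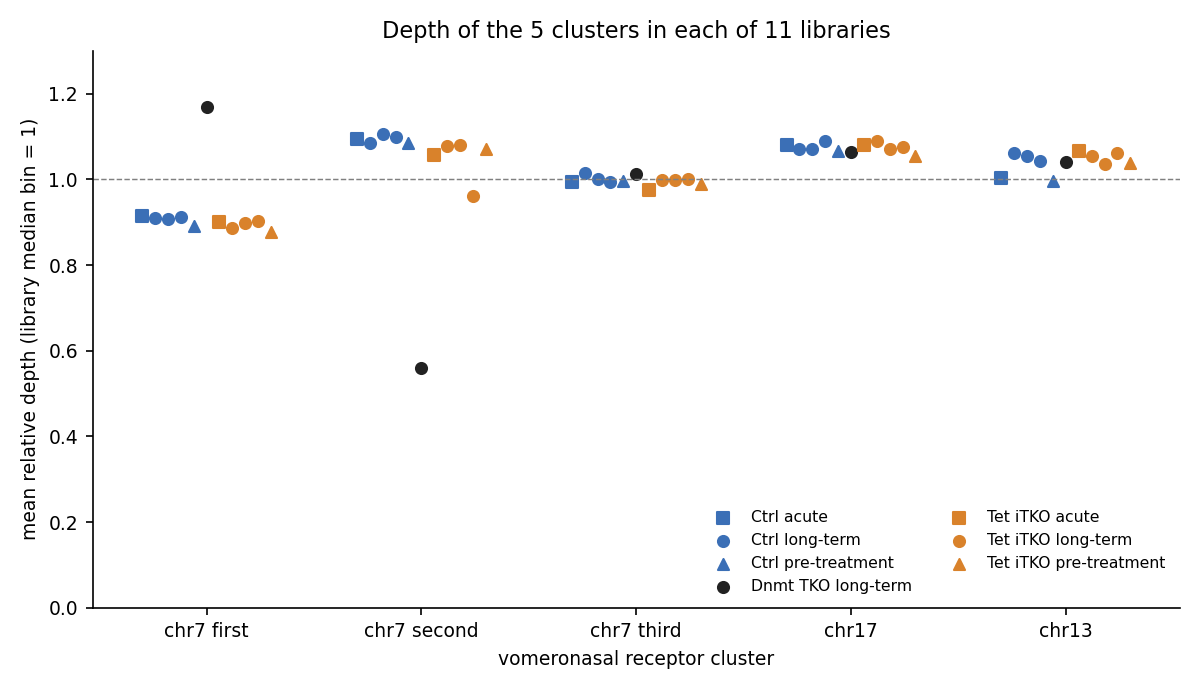
Mean relative depth of each of the 5 clusters (vertical axis, starting at 0; the dashed line marks the library's median autosomal bin) in each of the 11 libraries, 1 point per library with no error bar, colour for genotype and shape for stage. Dnmt TKO lies at 1.17 in the first chromosome 7 cluster and at 0.560 in the second, and 1 long-term Tet iTKO library lies at 0.960 in the second, below the other 9 Ctrl and Tet iTKO libraries.

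The second chromosome 7 cluster, the Vmn1r array, was lower in Dnmt TKO along nearly its whole length. Its level was 1.08, 1.10 and 1.10 in the 3 long-term Ctrl libraries and 0.560 in Dnmt TKO, a ratio of 0.511. A bin was counted as past the limit when its log2 difference from the mean of long-term Ctrl was at least 0.5 in size, and 63 of the 69 bins were lower by that measure, beside 0.876% of the 47924 autosomal bins. No bin of the cluster was higher by that measure, beside 2.4% of the autosomal bins. The 63 bins formed 2 runs, 23 bins at chr7:20072139-21220551 with a mean log2 difference of -1.09 and 40 bins at chr7:21270483-23321006 with -1.10. The bin between them was also lower, by -0.40, and had a relative depth of 0.778 against 1.03 in long-term Ctrl.

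The whole stretch, chr7:20072139-23321006 (64 bins, 3.20 Mb), reached from Vmn1r91 to Vmn1r166 and held 60 Vmn1r genes, 49 of them coding, among 86 coding genes. The other 37 coding genes were Nlrp9b and Nlrp4e, members of the NLR family with oocyte and embryo expression, and 35 predicted genes with Gm symbols. Its relative depth was 1.09, 1.11 and 1.10 in long-term Ctrl and 0.524 in Dnmt TKO, a ratio of 0.475, and the ratio of single bins ranged from 0.286 to 0.760. Of the bins of the cluster, 43 of the 45 that overlapped a Vmn1r gene and 20 of the 24 that did not were past the limit. At the left border Dnmt TKO went from 0.927 in the last bin before the stretch to 0.509 in its first bin, where long-term Ctrl stood at 1.15 and 1.19. At the right border it went from 0.498 in the last bin to 1.22 in the next, where long-term Ctrl stood at 0.947 and 1.05. The share of unique 50-mers changed at the same bins: the 64 bins of the stretch had at most 37.2%, with a median of 0.920%, and the 5 remaining bins of the cluster had at least 63.6%. In those 5 bins Dnmt TKO stood at 1.03 and long-term Ctrl at 1.01.

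**Figure D2:**
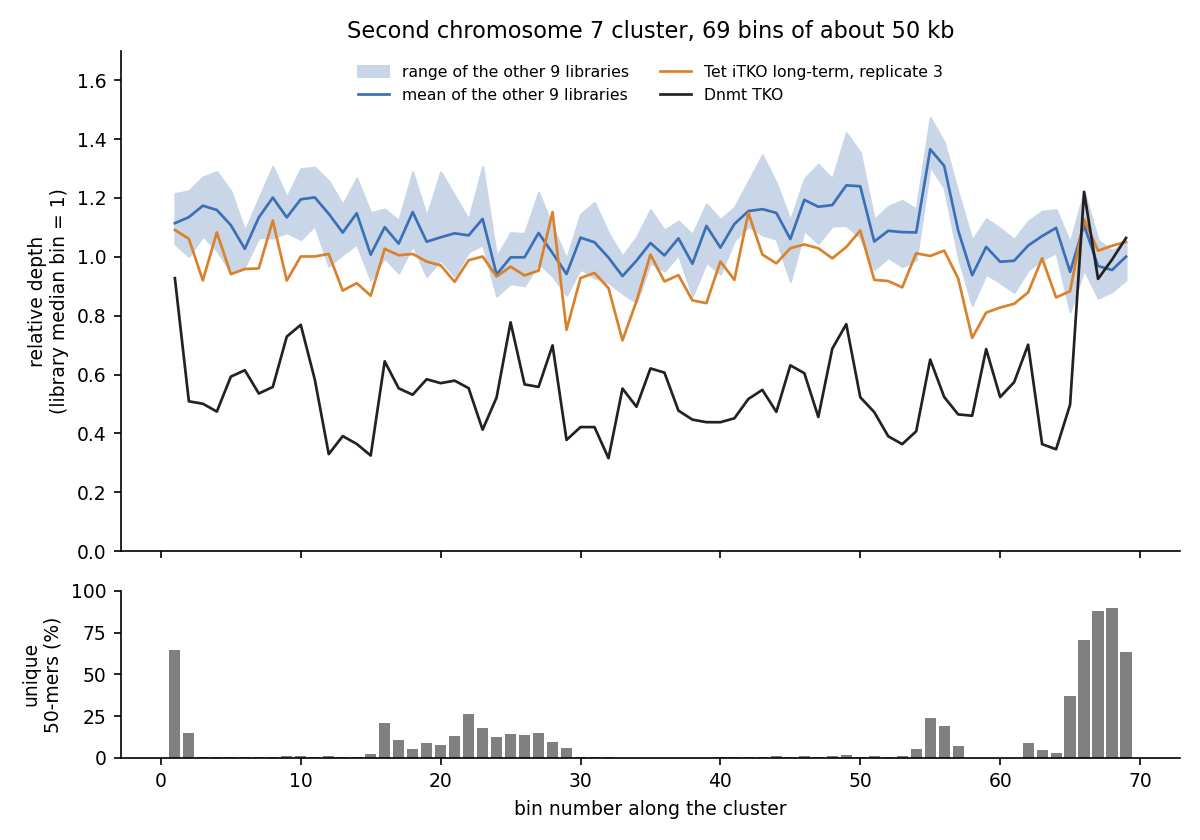
Relative depth (upper panel, starting at 0) and share of 50-mers that occur once in the genome (lower panel, percent) in the 69 bins of the second chromosome 7 cluster, numbered along the chromosome. Dnmt TKO (black) lies below the range of 9 Ctrl and Tet iTKO libraries (shaded, mean as a line) in the bins of low uniqueness. It also lies below that range in the first bin of the cluster, at 0.927 with 64.4% unique 50-mers. At the right end it rises to about the level of the range. Long-term Tet iTKO replicate 3 (orange) has a mean of 0.952 over the 64 bins of the stretch and lies below the shaded range in 43 of them.

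Long-term Tet iTKO replicate 3 had less depth over the same stretch, a pattern singled out after its values were seen. The stretch stood at 0.952 in this library, at 1.08 and 1.08 in the other two long-term Tet iTKO libraries, at 1.09, 1.11 and 1.10 in long-term Ctrl, at 1.09 and 1.07 in untreated Ctrl and Tet iTKO, and at 1.10 and 1.06 after acute treatment. The library was thus 11.9% below the other long-term Tet iTKO libraries, a mean log2 difference of -0.18, and 10.2% below the lowest of the other 9. No single bin reached the limit of 0.5, the lowest being -0.47. It was below both other long-term Tet iTKO libraries in 53 of the 64 bins (33.5% of all autosomal bins were) and the lowest of the 10 Ctrl and Tet iTKO libraries in 43 of 64 (10.2% of all autosomal bins were), where no other library was lowest in more than 5. When the autosomes were tiled in windows of 64 bins, the mean log2 difference of this library was at or below that of the stretch in 0 of 736 windows that did not touch it, and the lowest of these was -0.09, although its highest window elsewhere reached 0.44. The other two long-term Tet iTKO libraries reached -0.12 and -0.86 in windows elsewhere. For scale, the same measure in the 3 long-term Ctrl libraries stayed between -0.05 and 0.06 over all 738 windows. The windows were not matched to the stretch in their share of repeated sequence.

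In the 5 bins of the cluster outside the stretch, replicate 3 stood at 1.07 and the other two long-term Tet iTKO libraries at 1.06. Elsewhere the median log2 difference of replicate 3 from the other two was small in bins where Dnmt TKO differed. It was 0.02 in the 22 bins of the first cluster that were higher in Dnmt TKO, where the same measure was -0.05 and -0.01 in replicates 1 and 2. It was -0.05 in the 5 bins of the chromosome 17 cluster that were lower in Dnmt TKO, where replicates 1 and 2 had 0.03 each. Outside the stretch it was 0.0006 over the 1149 autosomal bins that were higher in Dnmt TKO and 0.0017 over the 357 that were lower. The values of replicate 3 and Dnmt TKO share the interval and its repeated sequence, and whether they share a cause was not tested.

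The first chromosome 7 cluster, the Vmn2r array, went the other way in Dnmt TKO. Its level was 0.910, 0.907 and 0.912 in long-term Ctrl and 1.17 in Dnmt TKO, a ratio of 1.29, while the flanking 1 Mb on each side stood at 1.00 in both. Of its 69 bins, 22 were higher than long-term Ctrl by at least 0.5 on the log2 scale, beside the 2.4% of autosomal bins that were, and none was lower. The higher bins were 20 of the 40 that overlapped a Vmn2r gene or pseudogene, 2 of the 26 without a Vmn gene and 0 of the 3 with a Vmn1r gene. The median log2 difference was 0.50 in the Vmn2r bins and 0.16 in those without a Vmn gene.

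The higher bins lay in separate groups, and the receptor genes annotated in them were all of type 2. As the depth of a single bin here is not specific to its annotated genes, the gene names below mark positions only. The longest run, 5 bins at chr7:7328902-7579751, covered Vmn2r30, Vmn2r31, Vmn2r-ps36, Vmn2r32 and Vmn2r33. Its relative depth was 0.948, 0.971 and 1.02 in long-term Ctrl and 1.60 in Dnmt TKO, and the other 7 Ctrl and Tet iTKO libraries lay at 0.910 to 0.980. Runs of 4 bins at chr7:8081453-8282132, with Vmn2r41, Vmn2r42 and Vmn2r43, and at chr7:8934344-9135023, with Vmn2r-ps42, Vmn2r39 and Vmn2r38, stood at 1.47 and 1.46 in Dnmt TKO against 0.893 and 0.917 in long-term Ctrl. A run of 3 bins at chr7:9936141-10085933 held Vmn2r48, Vmn2r49 and Vmn2r50 and stood at 1.77 against 0.904. Within it the bin of Vmn2r49 and Vmn2r50 had the highest Dnmt TKO value of the cluster, 2.22, where the 3 long-term Ctrl libraries had 0.895, 0.691 and 0.961, a log2 difference of 1.39. Of the remaining 6 higher bins, 1 held no Vmn gene and the others held Vmn2r44, Vmn2r45 and Vmn2r47 and the pseudogenes Vmn2r-ps46, Vmn2r-ps47 and Vmn2r-ps43.

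The 22 bins past the limit had a median of 1.54 in Dnmt TKO and 0.918 in long-term Ctrl, and the 47 bins inside it had 1.02 and 0.905, a difference that the limit itself sets. All 22 bins past the limit had under 50% unique 50-mers, as 56 bins of the cluster did, and the median unique share was 16.2% in the 22 bins and 8.52% in the other 47. The values nearest the limit over the 5 clusters were 0.502 inside the call and 0.497 outside it. Across the 69 bins the Ctrl depth itself was higher where more of the sequence was unique (Spearman rho = 0.69, a description over neighbouring bins of the same libraries).

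**Figure D3:**
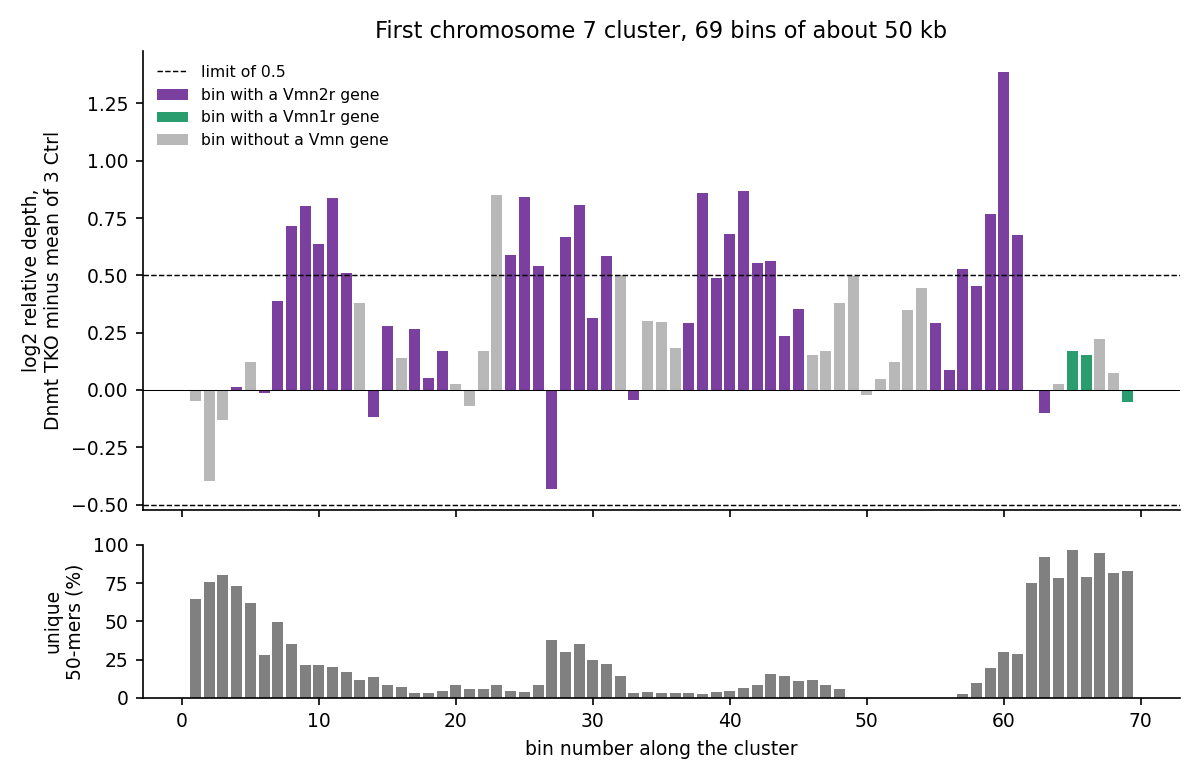
Difference of log2 relative depth between Dnmt TKO and the mean of the 3 long-term Ctrl libraries (upper panel; dashed lines at 0.5 and -0.5) and share of unique 50-mers (lower panel, percent) in the 69 bins of the first chromosome 7 cluster, numbered along the chromosome, with bars coloured by the Vmn genes they hold. The 22 bins above 0.5 fall in separate groups, 20 of them with a Vmn2r gene, and the highest reaches 1.39.

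The third chromosome 7 cluster, which also holds Olfr genes, was level in Dnmt TKO. It stood at 1.01, 1.00 and 0.993 in long-term Ctrl and at 1.01 in Dnmt TKO, and 0 of its 48 bins passed the limit in either direction, with single bins between -0.26 and 0.35 on the log2 scale. Its 30 Vmn2r bins had a median log2 difference of 0.0017 and its other 18 bins 0.02.

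The chromosome 17 cluster as a whole was also level, at 1.07, 1.07 and 1.09 in long-term Ctrl and 1.06 in Dnmt TKO, and 3 of its 110 bins were higher (2.73%, beside 2.4% of autosomal bins) and 5 lower (4.55%, beside 0.876%) in Dnmt TKO, all 8 of them with Vmn genes. The share of higher bins was thus near that of the genome. Of the lower bins, 4 lay close together near one end of the cluster. The run of 3 at chr17:23002617-23152584, with Vmn2r-ps129, Vmn2r-ps130 and Vmn2r-ps131, named as receptor pseudogenes although the annotation gives Vmn2r-ps130 as protein coding, stood at 1.15, 1.17 and 1.15 in long-term Ctrl and at 0.621 in Dnmt TKO. It was 1 of 7 such runs and was chosen for mention with its values known. A further lower bin at chr17:22902638-22952627 held Vmn2r113, whose start window is shown above, and stood at 1.14, 1.13 and 1.15 in long-term Ctrl and at 0.742 in Dnmt TKO. The last lower bin, with Vmn2r96, lay just past the limit, at -0.50. The higher bins were an adjacent pair with Vmn2r111 and Vmn2r112, at 1.94 and 1.87 in Dnmt TKO where the 3 long-term Ctrl libraries ranged from 1.15 to 1.31 and from 1.17 to 1.25, and a bin with the type 1 genes Vmn1r235 and Vmn1r236, at 1.67 against 1.05 to 1.10. The flanking 1 Mb on each side stood at 1.18 in Dnmt TKO and 1.09 in long-term Ctrl.

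On chromosome 13, 1 of the 16 bins was past the limit and lower (0.876% of autosomal bins were) and none was higher (2.4% were). The bin chr13:22074929-22124900, with Vmn1r188, Vmn1r189 and 3 pseudogenes, stood at 1.04, 1.16 and 1.07 in long-term Ctrl and at 0.671 in Dnmt TKO, a log2 difference of -0.69. The same bin was at 0.887 and 0.877 in Ctrl before and after acute treatment, below the 3 long-term Ctrl libraries and the 5 Tet iTKO libraries (1.02 to 1.11). The cluster as a whole stood at 1.04 in Dnmt TKO and at 1.05 on average in long-term Ctrl.

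Over the 5 clusters, 25 bins were higher (8.01%, beside 2.4% of autosomal bins) and 69 lower (22.1%, beside 0.876%) in Dnmt TKO. Of these, 22 higher bins lay in the first chromosome 7 cluster and 63 lower bins in the second. The borders of both lay near those of Dnmt TKO differences already seen, so the pooled shares may partly be set by the choice of intervals. Chromosome 17 had 2.73% higher and 4.55% lower, chromosome 13 had 0% and 6.25%, and the third chromosome 7 cluster had 0% of each. Of 244 autosomal bins with Vmn genes elsewhere, 9 were higher (3.69%) and 5 lower (2.05%). Of 607 bins with Olfr genes, 1 was higher (0.165%) and 4 lower (0.659%). The calls in the clusters lay mostly where sequence was repeated. With bins divided at 50% unique 50-mers, a value chosen after the data were seen, 89 of the 128 cluster bins below it passed the limit (69.5%) and 5 of the 184 at or above it (2.72%). Of the 89 bins, 22 lay in the first chromosome 7 cluster and 63 in the second, so the 69.5% may also reflect how those intervals were chosen. On chromosome 17 it was 4 of 7 bins below 50%. Among the bins taken as every 20th of the autosomes outside the clusters, the counts were 22 of 62 (35.5%) and 44 of 2318 (1.90%). The 5 calls in mostly unique sequence were the 4 single bins of chromosome 17 with Vmn1r235, Vmn2r96, Vmn2r111 and Vmn2r112 and the chromosome 13 bin, with 59.4% to 88.1% unique 50-mers. With 1 Dnmt TKO library none of these differences has a replicate check.

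**Figure D4:**
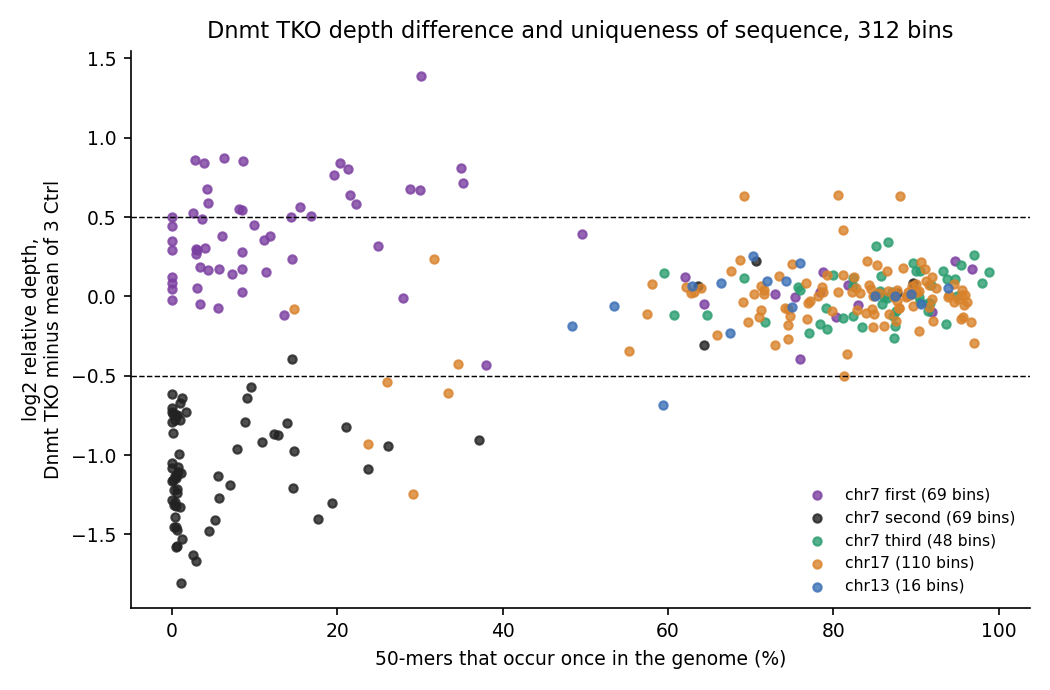
Difference of log2 relative depth between Dnmt TKO and the mean of the 3 long-term Ctrl libraries (vertical axis; dashed lines at 0.5 and -0.5) against the share of 50-mers that occur once in the genome (horizontal axis, percent), 1 point per bin for the 312 bins, coloured by cluster. Of the 94 bins past the limit, 89 lie below 50% unique 50-mers, with those of the second chromosome 7 cluster all lower and those of the first all higher.

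The question whether deletion of the Tet genes changed the amount of these arrays was put to the long-term libraries, 3 of each genotype. No bin of the clusters was called: limma with Benjamini-Hochberg adjustment over all autosomal bins gave 0 of 312 bins at an adjusted p under 0.05, beside 0.136% of all 47924 bins, and the smallest adjusted p among them was 0.412. At an unadjusted p under 0.05 limma had 18 of the 312 bins, and 6.08% of all bins. The groups did not overlap in 11 bins that were higher in Tet iTKO and in 21 that were lower, beside 5.75% and 5.56% of all autosomal bins.

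The second cluster differed most between the genotypes, and 1 library carried the difference. Its level was 1.08, 1.10 and 1.10 in Ctrl and 1.08, 1.08 and 0.960 in Tet iTKO, so the groups did not overlap. The difference of the means was -0.08 on the log2 scale, with p = 0.1 in a two-sided exact permutation test, the smallest p that 3 against 3 libraries allow, and 0.25 after Benjamini-Hochberg adjustment over the 5 clusters. Without Tet iTKO replicate 3 it was -0.02, exact permutation p = 0.2. The median bin differed by -0.08, beside 0.0002 over all bins. In the cluster 58 of the 69 bins were lower in Tet iTKO, none of them called, beside 23909 of all 47924 autosomal bins. Neighbouring bins of this array share repeated sequence and the same low library, so they are not separate observations. How many stayed lower without replicate 3 was not counted. Its most different bin, chr7:22370427-22420457 with Vmn1r148, stood at 1.23, 1.25 and 1.31 in Ctrl and 1.13, 1.04 and 1.03 in Tet iTKO, a log2 difference of -0.25 ± 0.07 (SE, limma, adjusted p = 0.412, not passing).

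The first cluster stood at 0.910 ± 0.0026 in long-term Ctrl and 0.896 ± 0.0090 in long-term Tet iTKO (mean ± SD, n = 3 each), without overlap between the groups. The difference was -0.02 on the log2 scale, with an exact permutation p = 0.1 and an adjusted p of 0.25, and the flanks stood at 1.00 and 1.04. The size depended on the setting: it was -0.0041 with the median over bins (exact permutation p = 1.0), -0.0138 with GC correction, -0.0144 without Tet iTKO replicate 1 and -0.0793 against the flanks. Its most different bin, chr7:8031283-8081452, holds no Vmn gene and overlapped between the groups (log2 difference -0.17, limma adjusted p = 0.778). In the third cluster, on chromosome 17 and on chromosome 13 the cluster differences were -0.0044, 0.003 and -0.0033, exact permutation p = 0.8, 0.6 and 0.7, all with an adjusted p of 0.8, and all 3 changed sign under at least 1 other setting. The most different bins there were each higher in Tet iTKO: chr7:85266441-85316458 with the pseudogene Vmn2r-ps69 by 0.18, chr17:21302980-21352968 with Vmn1r237 by 0.20 and chr13:22374761-22424732 with Vmn1r199 and Vmn1r200 by 0.16. None passed, with limma adjusted p-values of 0.748, 0.694 and 0.770.

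**Figure D5:**
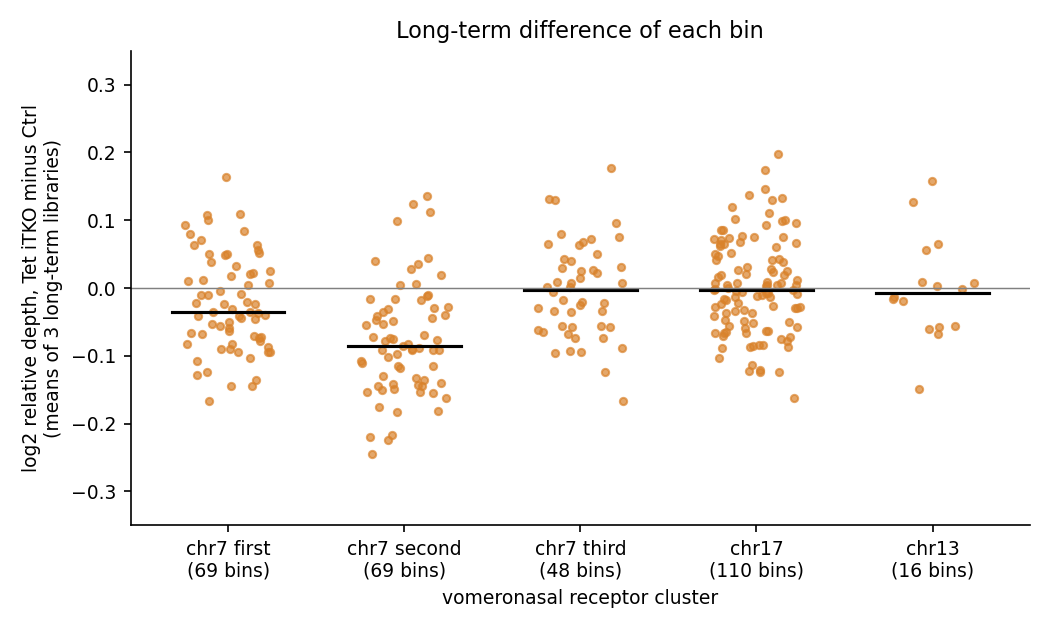
Long-term difference in log2 relative depth, mean of 3 Tet iTKO libraries minus mean of 3 Ctrl libraries, for each bin of the 5 clusters, 1 point per bin, with the median of each cluster as a black line. The median lies at -0.08 in the second chromosome 7 cluster, at -0.03 in the first and within 0.01 of 0 in the other 3 clusters, and no bin passed the test.

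Before tamoxifen treatment none of the 312 bins differed between Tet iTKO and Ctrl by 0.5 or more on the log2 scale, beside 0.0376% of autosomal bins higher and 0.0146% lower. After acute treatment none did either, beside 0.0438% and 0.0271%. The second cluster stood at 1.08 in Ctrl and 1.07 in Tet iTKO before treatment and at 1.10 and 1.06 after it, and the first at 0.892 and 0.877 and then at 0.914 and 0.901. The chromosome 13 cluster was higher in Tet iTKO at both early stages, 1.04 against 0.996 and 1.07 against 1.00, with 1 library on each side and no test. None of the 6 long-term Ctrl and Tet iTKO clones had a cluster bin 0.5 or more from the other two of its genotype, beside 0.219% of autosomal bins in which at least 1 clone was that much higher and 0.357% in which at least 1 was that much lower.

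Between the early and the long-term libraries, 39 of the 312 bins in Ctrl were higher in all 3 long-term libraries than in both early ones (12.5%, beside 10.6% of all autosomal bins) and 18 were lower (5.77%, beside 10.4%). In Tet iTKO 38 were higher (12.2%, beside 10.7%) and 30 lower (9.62%, beside 10.2%). On chromosome 13 the long-term Ctrl libraries stood at 1.06, 1.05 and 1.04, above 0.996 and 1.00 in the early ones, whereas the Tet iTKO libraries overlapped between the stages, and the difference between the genotypes was not tested.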

How the data were processed

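Genomic DNA of 11 mESC libraries was sequenced with single-end reads. Per the methods, the authors trimmed reads, mapped them to mm10 with BWA-mem at default options and used Picard to remove optical duplicates. The submitters' processing notes name BSMAP as well, which the methods give for bisulfite data. The deposited depth values are coverage (signal), the mean read depth per bin of about 50 kb, not scaled or corrected for GC content or mappability. The deposited log2 values equal log2 of that depth within 4.05e-05 and were not used further. Here depth was divided by the median autosomal bin of each library, and log2(relative depth + 0.01) was analysed for bins of at least 25 kb with a mean relative depth of at least 0.1, which all 312 cluster bins passed. Groups came from the labels, and replicate numbers did not pair libraries. Long-term genotypes were compared per bin with limma 3.58.1 (R 4.3.3, Benjamini-Hochberg over 47924 bins) and per cluster mean with exact permutation tests. The limma step was also run on simulated Poisson counts without variation between clones, so that run does not cover such variation. Comparisons with 1 library used a log2 limit of 0.5, where the robust SD was 0.13 for Dnmt TKO. Genes came from GENCODE M21, and 50-mers were counted in GRCm38 at every 10th position. Named bins were, per cluster, the called ones or otherwise the most different one, and the 6 longest runs of 3 or more bins past the limit. Alternatives were another pseudocount, filter, GC correction, scaling, limit, bin size and block, and leaving out libraries. The clusters, gene lists and tests were chosen with earlier results of these data known.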

Additional observations from a re-analysis of the deposited data

How the results depend on the processing

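The call of 0 cluster bins in the long-term comparison held under every alternative run. For single bins limma had 13 to 26 of 312 at an unadjusted p under 0.05, beside 5.39% to 6.27% of all bins tested. With 5 bins joined it had 8 of 61, beside 9.41% of all joined bins. The small cluster differences changed sign: on chromosome 17 to -0.0008 with the median over bins and -0.0246 against the flanks, in the third chromosome 7 cluster to 0.0072 with GC correction and 0.0118 against the flanks, and on chromosome 13 to 0.0111 against the flanks. Leaving out single libraries gave -0.028 to -0.0144 for the first chromosome 7 cluster, -0.1073 to -0.0226 for the second, -0.011 to 0.0044 for the third, -0.0038 to 0.0115 for chromosome 17, -0.0111 to 0.0066 for chromosome 13, 92 to 94 Dnmt TKO bins and -0.1832 to -0.1804 for the stretch in Tet iTKO replicate 3. The Dnmt TKO count was 39 at a limit of 1 and 116 at 0.3. At 0.3 the counts were 4 before treatment, 8 after acute treatment and 24 over the clones. Shares of all autosomal bins at these changed limits were not counted, so these counts are not read as a result about the clusters. With the replicate number as a block, limma called 0 cluster bins and 79 autosomal bins against 65. The second cluster stayed at -0.0787, with an exact sign-flip permutation p = 0.25, the smallest p that 3 blocks allow. For same-numbered libraries, the deviations of their bins from the mean of their own genotype had correlations of 0.001041, -0.005001 and 0.001895. The stretch settings were added after seeing the data and gave -0.167 to -0.1832. The cause of these changes was not tested. Depth limits single bins: differences near the robust SD of 0.13 could not be resolved.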
